A study of Rattus norvegicus with 17 samples.

Results

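The genes described here are 40 components and regulators of the actin cytoskeleton, measured in rat spinal cord neurons on 17 arrays. A gene's probe sets were those to which the annotation of the array gives its symbol and no other. Such probe sets were found for 36 of the 40 genes, 81 probe sets in all, out of 14217 genes named in this way. Of the 81 probe sets, 55 were bright enough to be tested, and they belong to 33 of the genes. Pfn1, Coro1b and Fscn1 had dim probe sets only, and 4 listed genes, Actb, Cfl1, Tmsb10 and Actr3, are present only on 7 probe sets that share several symbols and are given no value. Each gene is described at its brightest probe set, the one with the highest mean log2 signal over the arrays.

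Each array was made from 1000 retrogradely labelled neurons, collected with a laser from 10 µm cryosections of unfixed spinal cord, with 1 array per sample. Both kinds of axotomised neuron, regenerating and non-regenerating, were taken from each of 7 rats (MM11, MM13, MM14, MM16 and MM17, and MOON265 and MOON266), so that regeneration could be compared within an animal. The third group, traced and not axotomised, is of 3 rats (MM15, MM18 and MM19), so that axotomy was compared between animals, and the labels call the array of MM15 a high yield replicate. Retrograde labelling, laser capture and 3 rounds of RNA amplification were common to all 3 groups. Strain, age, sex, the kind of injury, the time after it and the means by which regenerating neurons were told apart are not given in the sources used here. A signal is the intensity of a probe set on a linear scale, with every array scaled to the same trimmed mean, and the levels of different genes are not ranked against each other.

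Actin filaments grow at their barbed end and are taken apart at the other, and this turnover drives the growth cone, the motile tip of an extending axon. Small GTPases direct it: Rac and Cdc42 promote branched networks through the Arp2/3 complex, and the LIM kinases phosphorylate and switch off cofilin, the factor that severs old filaments. Profilin and thymosin beta hold the pool of actin monomers, capping protein and the Ena/VASP proteins compete at the barbed end, and ezrin, radixin and moesin tie filaments to the membrane.

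The promoters of the actin gene and of Limk1, Limk2, Arpc1b and Arpc5, the 4 genes among the 6 smallest p values of both comparisons with not axotomised neurons, are shown first, since transcription of actin genes is known to depend on serum response factor, whose site is called the CArG box. Each sequence holds the 250 bases before a transcription start taken from RefSeq for the rat assembly GRCr8. The RefSeq span of the gene reaches further upstream than that start for Limk2, where 111 of the bases lie inside it, and for Arpc1b, where 13 do. Capitals mark a CArG box and the letters GGGCGG read on either strand, where CCGCCC is the same motif on the other strand and overlapping matches run together.
Actg1, chr10:106120952-106121201, minus strand: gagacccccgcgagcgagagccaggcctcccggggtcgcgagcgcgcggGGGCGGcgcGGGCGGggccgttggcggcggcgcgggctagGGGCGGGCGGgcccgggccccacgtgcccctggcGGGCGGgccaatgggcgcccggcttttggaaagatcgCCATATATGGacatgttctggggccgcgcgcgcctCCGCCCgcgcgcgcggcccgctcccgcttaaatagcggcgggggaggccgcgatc
Limk1, chr12:27662927-27663176, plus strand: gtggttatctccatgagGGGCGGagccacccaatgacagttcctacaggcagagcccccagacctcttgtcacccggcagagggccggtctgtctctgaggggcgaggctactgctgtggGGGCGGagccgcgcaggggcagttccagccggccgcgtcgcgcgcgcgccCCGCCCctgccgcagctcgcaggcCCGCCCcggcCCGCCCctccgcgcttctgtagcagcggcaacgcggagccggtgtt
Limk2, chr14:82509645-82509894, minus strand: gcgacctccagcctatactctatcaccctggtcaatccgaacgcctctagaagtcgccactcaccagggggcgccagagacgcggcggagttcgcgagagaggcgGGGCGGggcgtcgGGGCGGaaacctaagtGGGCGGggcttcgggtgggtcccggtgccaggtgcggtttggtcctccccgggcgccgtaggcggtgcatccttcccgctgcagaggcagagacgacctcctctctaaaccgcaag
Arpc1b, chr12:14609489-14609738, minus strand: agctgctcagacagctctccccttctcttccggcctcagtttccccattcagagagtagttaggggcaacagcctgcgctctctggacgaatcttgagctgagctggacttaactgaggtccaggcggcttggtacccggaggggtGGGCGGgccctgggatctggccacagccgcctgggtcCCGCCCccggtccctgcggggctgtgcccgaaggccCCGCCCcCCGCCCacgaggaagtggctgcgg
Arpc5, chr13:67454129-67454378, plus strand: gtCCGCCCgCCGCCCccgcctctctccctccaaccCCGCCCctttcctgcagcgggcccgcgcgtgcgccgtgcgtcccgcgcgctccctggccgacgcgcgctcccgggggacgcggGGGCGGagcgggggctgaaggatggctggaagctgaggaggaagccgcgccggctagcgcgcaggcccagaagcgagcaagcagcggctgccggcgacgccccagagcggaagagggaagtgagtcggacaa
The CArG box of Actg1 begins 90 bases before the start, in a window that also holds 6 copies of GGGCGG. A RefSeq promoter was matched for 33 of the 36 measured genes, Cap1, Rac1 and Arpc1a being without one. Of these 33, Actg1 alone holds a CArG box, against 1.5% of the 33469 rat promoters in the same window. GGGCGG is found in 26 of the 33, or 78.8%, against 30.5% of all rat promoters. TATAAA is found in 1 of the 33, Fscn1, against 12.9%. These matches describe letters in a window and say nothing of which factor binds there.

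The arrays were not alike beyond their groups. Median signal over all probe sets was 32.8 to 60.6 on the regenerating arrays, 33.9 to 76.9 on the non-regenerating ones and 63.7 to 76 on those of not axotomised neurons. The array of non-regenerating MM17 was the highest of its group in 8 of the 33 tested genes and the lowest in 10, and that of not axotomised MM15 was the highest of its 3 in 13 and the lowest in 17. In the 3 prime to 5 prime ratio of the Gapdh control, a sign of how far RNA or its copies are shortened, these 2 arrays had the lowest values, 10.0 and 11.7, against 20.7 to 150.0 on the other 15. General neuron markers ranged widely in signal over the arrays, with 2850.1 to 11153.8 for Snap25, a protein of synaptic vesicle fusion, and 1629 to 5031.6 for Nefl, a neurofilament, but 79.6 to 851 for Rbfox3, 64.1 to 1223.5 for Syn1, 55.7 to 422.1 for Uchl1 and 28.5 to 136.6 for Syt1. All 3 not axotomised rats carry the prefix MM, so the rats with the prefix MOON, whose meaning is not given in the sources used here, are found among axotomised arrays only.

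Between regenerating and non-regenerating neurons of the same rats, no actin gene passed the test. By limma with the animal as a block, 0 of the 33 genes had an adjusted p under 0.05, and 0 had an unadjusted p under 0.05. Over all 18625 tested probe sets, 3 or 0.0161% passed the adjusted threshold (0.0107% higher and 0.00537% lower) and 7.08% the unadjusted one (4.26% higher and 2.81% lower). The log2 fold change of regenerating over non-regenerating was above 0 in 18 of the 33 genes, against 49.8% of all tested probe sets, and lay between -0.33 for Arpc3 and 0.30 for Ezr. Its median over the genes was 0.03, and that over all tested probe sets was -0.00087.

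Between regenerating and not axotomised neurons, the genes for both LIM kinases were lower in the regenerating group, and Arpc5, Ablim1 and Tpm3 were higher, with no overlap between the arrays of the groups. None of these differences passed the adjusted test. By limma, 0 of the 33 genes had an adjusted p under 0.05, against 40 probe sets or 0.215% of all tested (0.156% higher and 0.0591% lower). The unadjusted p was under 0.05 for 9 genes, or 27.3%, against 23.6% of all tested probe sets. On the higher side were 7 genes, or 21.2% against 5.98%, and on the lower side 2, or 6.06% against 17.6%. The log2 fold change was above 0 in 22 genes, against 40.8%. Genes on the higher side were Ablim1, Actg1, Arpc1b, Arpc5, Rdx, Tmsb4x and Tpm3, and those on the lower side were Limk1 and Limk2. Arrays of the groups did not overlap for 3 genes with higher values, or 9.09%, against 2.35% of all tested probe sets. They did not overlap for 2 genes with lower values, or 6.06%, against 9.36%.

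Between non-regenerating and not axotomised neurons, Limk1 and Limk2 again had lower group means after axotomy and Arpc1b had a higher one, but the arrays of the groups overlapped for every tested gene. By limma, 0 of the 33 genes had an adjusted p under 0.05, against 8 probe sets or 0.043% of all tested. The unadjusted p was under 0.05 for 4 genes, against 10.3% of all tested probe sets: Arpc1b with a higher mean, against 2.68%, and Ezr, Limk1 and Limk2 with a lower one, against 7.61%. Groups without overlap made up 1.1% of all tested probe sets on the higher and 1.47% on the lower side, and 0 of the 33 genes. In 24 genes the log2 fold change was above 0, against 38.8%. Both comparisons with the not axotomised group use the same 3 arrays, so their values stand side by side and do not check each other.

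Brightness bears on how these counts read. The median log2 fold change of the 33 genes was 0.10 for regenerating and 0.13 for non-regenerating over not axotomised neurons, against -0.12 over all tested probe sets in both comparisons. Of the 33 genes, 25 lay in the brightest of 3 equal parts of the tested probe sets, where the median over all probe sets was 0.08 in both comparisons. The median of these 25 genes was 0.06 for regenerating and 0.13 for non-regenerating over not axotomised neurons. In the dimmest part the medians over all probe sets were -0.41 and -0.38. Among the 3148 tested probe sets at least as bright as the median actin gene, 9.09% were higher and 2.38% lower at an unadjusted p under 0.05 in regenerating over not axotomised neurons. Of these 3148, 57.6% had a log2 fold change above 0 for regenerating and 66.4% for non-regenerating over not axotomised neurons. The 33 actin genes had 66.7% and 72.7%. Actin genes below that median, Limk1, Limk2, Arpc1b and Ezr among them, are dimmer than all of the 3148. The sets are thus not matched in brightness.

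**Figure D1:**
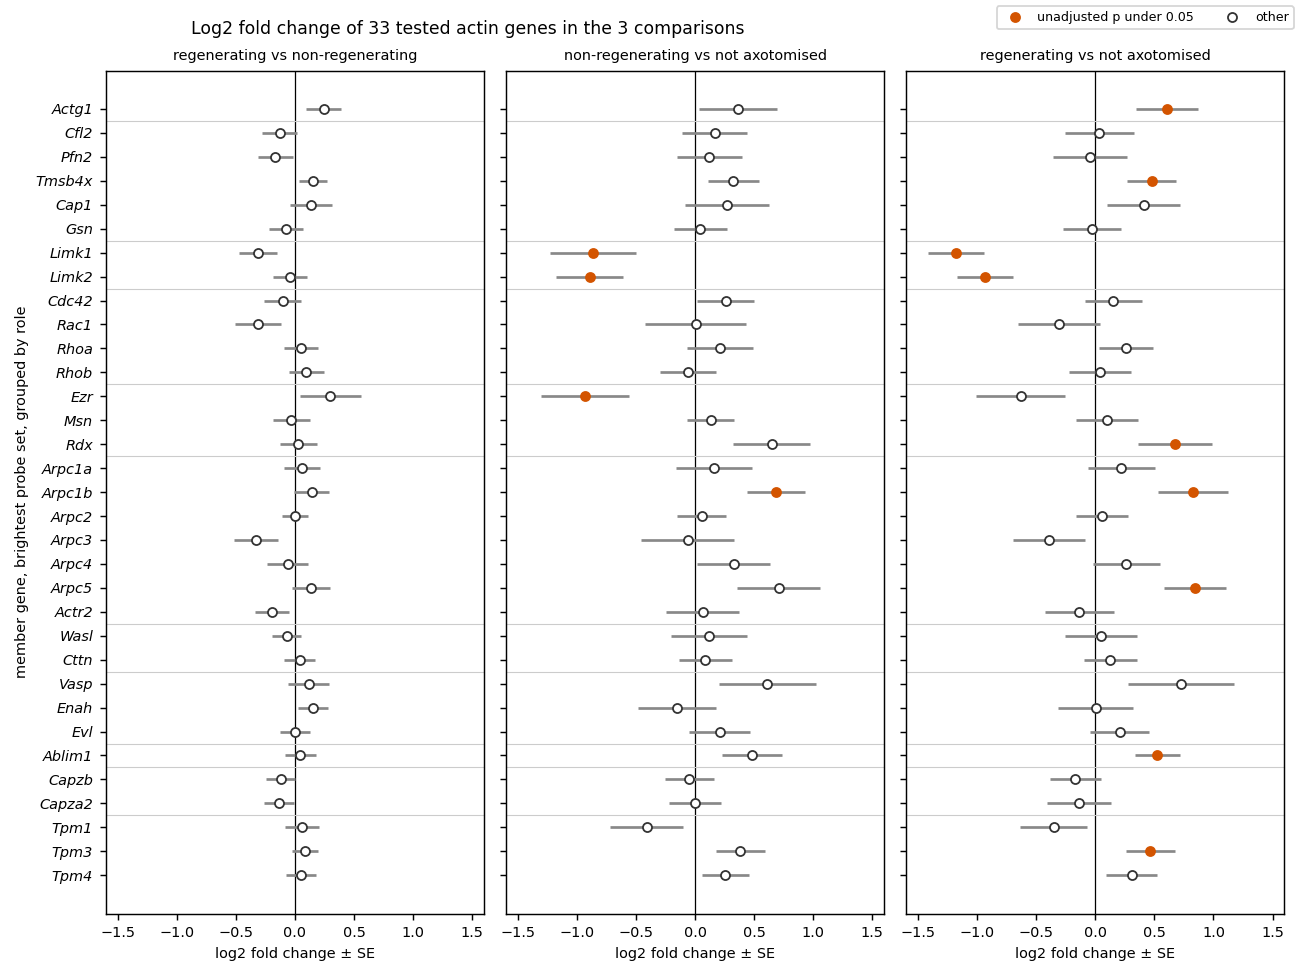
Log2 fold change (x axis) of the 33 tested actin genes (y axis, grouped by role) in each of the 3 comparisons, with bars for 1 standard error of limma and filled points for an unadjusted p under 0.05. No point is filled between regenerating and non-regenerating neurons, 4 are filled for non-regenerating and 9 for regenerating against not axotomised neurons, with both LIM kinases at the lower end in the latter 2.

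The LIM kinases gave the largest differences of the 33 genes between regenerating and not axotomised neurons. Limk1, which phosphorylates cofilin, had signals of 550.5, 493.6 and 713.2 in not axotomised MM18, MM19 and MM15. Its regenerating arrays had 192.4 at the lowest, 253.1 at the median and 367.3 at the highest, all below the 3 not axotomised ones. Non-regenerating arrays had 191.3, 287.7 and 876.2, where the highest, of MM17, lay above every not axotomised array and the other 6, at most 321.1, lay below them all.

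Regenerating over not axotomised neurons, the Limk1 log2 fold change was -1.18 (SE 0.24, n = 7 and 3), or 2.27-fold lower, with an adjusted p of 0.067 by limma and an unadjusted two-sided exact permutation p of 0.00833, the smallest that 7 against 3 arrays allow. Non-regenerating over not axotomised, it was -0.87 (SE 0.36, adjusted p = 0.47 by limma, exact permutation p = 0.075). Within animals it was -0.31 (SE 0.16, adjusted p = 0.70 by limma), lower in the regenerating sample of 5 of 7 rats, with a sign-flip exact p of 0.0938. Pair differences ranged from -1.22 in MM17 to 0.23 in MOON266. The value was -0.16 without MM17 and 0.14 in the 2 MOON rats alone, a split added after the data were seen.

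Limk2, the second LIM kinase, had signals of 455.1, 537.2 and 607.8 in not axotomised MM18, MM19 and MM15. Regenerating arrays had 192.9, 278.1 and 407.7 at the lowest, median and highest, again below all 3. Non-regenerating arrays had 204.5, 247.9 and 572.8, of which MM17 alone reached the not axotomised range.

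The log2 fold change of Limk2 was -0.93 (SE 0.24, adjusted p = 0.068 by limma, exact permutation p = 0.00833) in regenerating over not axotomised neurons. In non-regenerating over not axotomised neurons it was -0.89 (SE 0.28, adjusted p = 0.47 by limma, exact permutation p = 0.025). Within animals Limk2 differed by -0.04 (SE 0.14), with 4 of 7 rats higher and 3 lower. Without the regenerating array of MM17, where 1504 probe sets or 8.08% of all tested passed, both kinases passed in regenerating over not axotomised neurons, with Limk1 at -1.27 (adjusted p = 0.023 by limma) and Limk2 at -1.03 (adjusted p = 0.028 by limma). Over all alternatives of that comparison the adjusted p ran from 0.0026 to 0.39 for Limk1 and from 0.0057 to 0.39 for Limk2, and the log2 fold change from -1.29 to -0.79 and from -1.04 to -0.54.

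**Figure D2:**
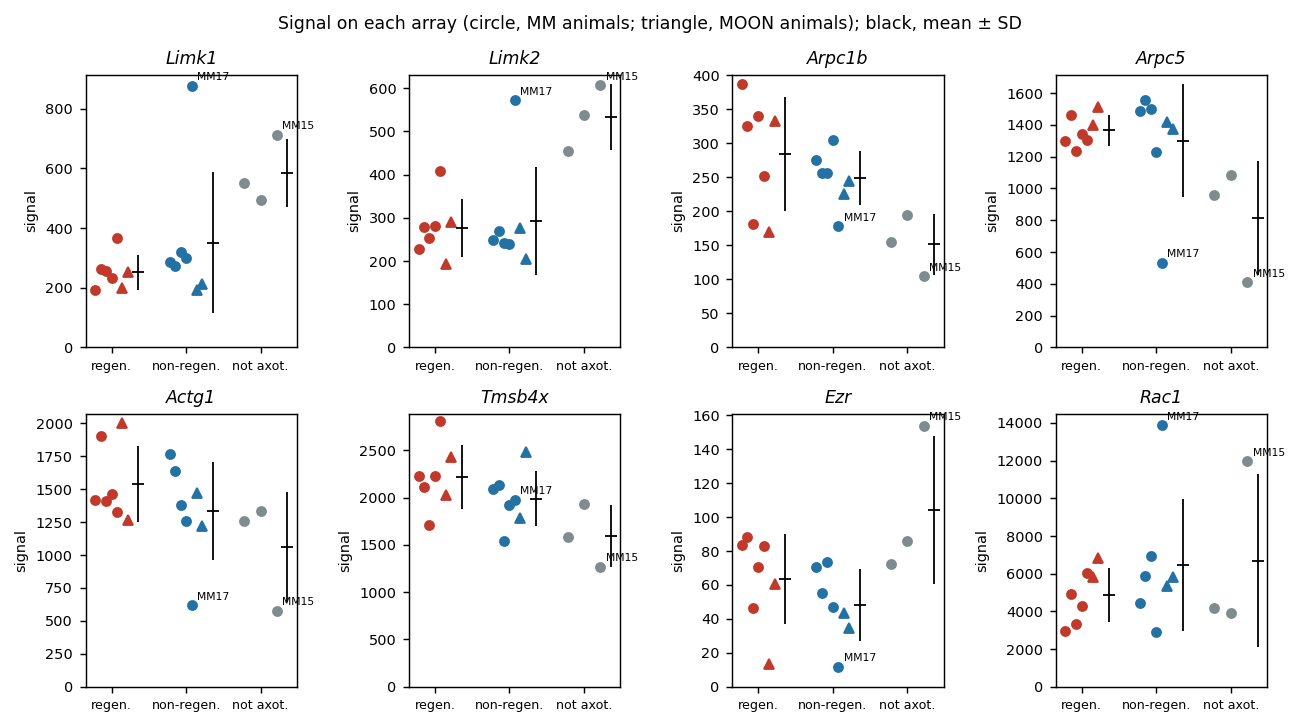
Signal (y axis, linear, from 0) of 8 actin genes on each array of the 3 groups (x axis), with circles for MM rats, triangles for MOON rats and black bars for the group mean ± SD. For Limk1 and Limk2 every regenerating point lies below the 3 not axotomised points, and non-regenerating MM17 and MM15 of the not axotomised rats lie at the edge of their group in most panels.

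Actin itself was represented by Actg1, cytoplasmic gamma actin. Its signals were 1257.6, 1338.2 and 579.1 in not axotomised MM18, MM19 and MM15, with MM15 far below the other two. Regenerating arrays had 1265.3, 1415.8 and 2001.5 at the lowest, median and highest, and non-regenerating arrays 617.7, 1381 and 1764.3, with MM17 again the low one. The groups overlapped in both comparisons with not axotomised neurons.

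The Actg1 log2 fold change was 0.61 (SE 0.26, adjusted p = 0.18 by limma, exact permutation p = 0.025) in regenerating over not axotomised neurons, and 0.36 (SE 0.33, adjusted p = 0.66 by limma) in non-regenerating over not axotomised ones. Without the array of MM15 these values were 0.23 and -0.02. Within animals the difference was 0.24 (SE 0.15, adjusted p = 0.72 by limma), with 6 of 7 rats higher, from -0.31 in MM11 to 1.09 in MM17. A second, dim probe set of Actg1 went the other way, at -0.60 (SE 0.28) in regenerating over not axotomised neurons.

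Beta-actin has no probe set with its symbol alone, but the array carries 3 quality controls named for it, placed at the 5 prime end, the middle and the 3 prime end of its RNA. The 3 prime control had a mean signal of 627 ± 296 (SD, n = 7) in regenerating, 502 ± 242 (n = 7) in non-regenerating and 639 ± 234 (n = 3) in not axotomised neurons, so the spread within groups exceeded the differences between them. At the 5 prime end the means were 25.9, 30.7 and 41.0. The ratio of 3 prime to 5 prime signal was 7.41 to 46.3, 9.35 to 29.9 and 11.4 to 51.8 in the 3 groups in that order. Part of the spread at the 3 prime end went with the name prefix. There the MOON arrays had 248.5 to 287.6, below all axotomised MM arrays, at 368.5 to 987.3. Such a gap on the lower side was found for 14.6% of all tested probe sets. Pairs ran from 987.3 in regenerating against 368.5 in non-regenerating MM14 to 583.6 against 949.3 in MM17.

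**Figure D3:**
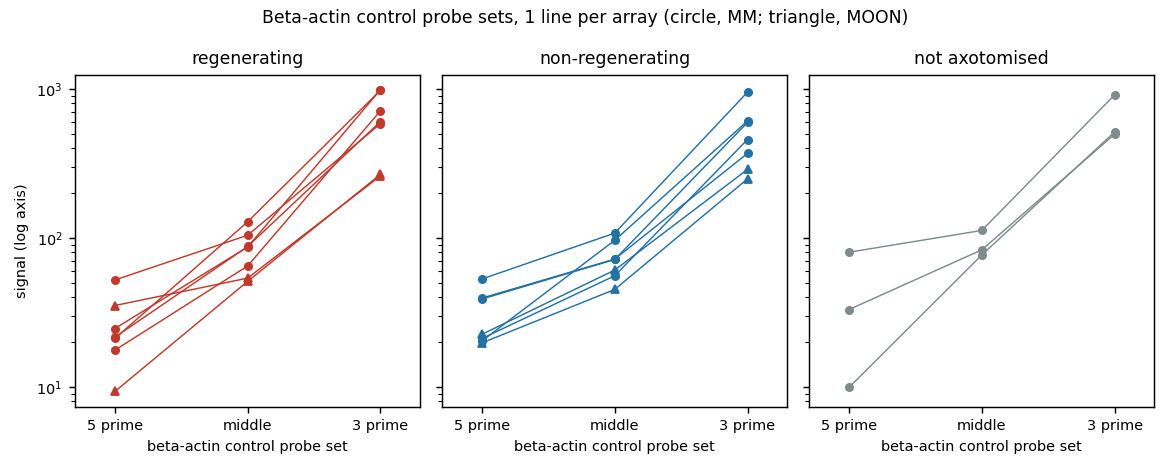
Signal (y axis, log scale) of the 5 prime, middle and 3 prime beta-actin control probe sets (x axis), 1 line per array in 3 panels for the groups, with circles for MM and triangles for MOON rats. Every line climbs from the 5 prime to the 3 prime end, by a ratio of 7.41 to 51.8, and the panels overlap.

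Of the monomer binding and turnover genes, Tmsb4x, thymosin beta 4, which sequesters actin monomers, had signals of 1583.7, 1929.2 and 1271 in not axotomised MM18, MM19 and MM15. Regenerating arrays had 1710, 2225.8 and 2809.2 at the lowest, median and highest, and non-regenerating arrays 1539.1, 1979.3 and 2477.5. All but 1 of the 7 regenerating arrays lay above the 3 not axotomised ones. Its log2 fold change was 0.48 (SE 0.21, adjusted p = 0.18 by limma, exact permutation p = 0.0167) for regenerating and 0.32 (SE 0.21, adjusted p = 0.54 by limma) for non-regenerating over not axotomised neurons. Within animals it was 0.16 (SE 0.12, adjusted p = 0.77 by limma, sign-flip exact p = 0.0625), higher in 5 of 7 rats and at most 0.50, in MM17.

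The other 4 tested genes of this role had no unadjusted p under 0.05 in any comparison. Pfn2, the profilin of neurons, had group means of 2447, 2662 and 2356 in regenerating, non-regenerating and not axotomised neurons, with SDs of 1073, 841 and 292. Cfl2, the second cofilin, had means of 2472, 2645 and 2269 with SDs of 1025, 821 and 244. Gsn, gelsolin, which severs and caps filaments, had means of 338, 352 and 345, with SDs of 81.7, 52.9 and 89.5. Cap1, which helps to recharge monomers after severing, had means of 58.2, 52.1 and 43.1, with 26.1 and 24.4 in not axotomised MM18 and MM19 and 78.9 in MM15. Its regenerating arrays, at 39.5 to 98.8, all lay above MM18 and MM19. The log2 fold change of Cap1 was 0.41 (SE 0.31, adjusted p = 0.47 by limma) for regenerating and 0.27 (SE 0.36, adjusted p = 0.78 by limma) for non-regenerating over not axotomised neurons, and 0.81 and 0.67 without MM15. With array weights, where 16.8% and 13.1% of all probe sets passed, Cap1 passed too, at 0.83 and 0.78. Pfn1, the general profilin, was too dim to be tested, with 2.2 to 48.5 over the 17 arrays.

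Among the small GTPases, Rac1, which drives lamellipodia, had 2 arrays far above the rest. Its signals were 4201.5, 3903.1 and 11974.2 in not axotomised MM18, MM19 and MM15, and 2929.8, 5846.4 and 13897.5 at the lowest, median and highest of the non-regenerating arrays, the last in MM17. Regenerating arrays had 2966.4, 4938.9 and 6810.5. MM15 and MM17 thus lay apart from all other arrays of Rac1.

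Within animals the Rac1 log2 fold change was -0.31 (SE 0.20, adjusted p = 0.72 by limma), lower in 4 of 7 rats. Regenerating over not axotomised it was -0.31 (SE 0.35) and without MM15 0.21, and non-regenerating over not axotomised it was 0.01 (SE 0.43). A second and dimmer Rac1 probe set gave 0.38 (SE 0.13, adjusted p = 0.68 by limma, sign-flip exact p = 0.0469) within animals, higher in 6 of 7 rats, so the 2 probe sets of this gene had opposite signs.

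Cdc42, which directs filopodia, had signals of 3707.5, 3721.1 and 3483.2 in not axotomised MM18, MM19 and MM15, against 2704.5, 4108.4 and 5949.5 in regenerating and 2822.7, 4747.4 and 5545.7 in non-regenerating arrays. The 3 not axotomised arrays lay inside the range of both axotomised groups. Cdc42 differed by 0.15 on the log2 scale (SE 0.24) for regenerating and 0.26 (SE 0.24) for non-regenerating over not axotomised neurons, and -0.10 (SE 0.16) within animals.

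Rhoa, which acts through its kinase on contraction, had signals of 596.3, 714 and 412.4 in not axotomised MM18, MM19 and MM15, 492.6, 710.9 and 845.2 in regenerating and 350.2, 698.9 and 852.9 in non-regenerating arrays. Its log2 fold change was 0.26 (SE 0.23), 0.21 (SE 0.28) and, within animals, 0.05 (SE 0.14). Rhob, an early response gene, had means of 174, 160 and 168 with SDs of 41.5, 23.1 and 41.9 in regenerating, non-regenerating and not axotomised neurons. For Cdc42, Rhoa and Rhob the groups overlapped in each comparison, with adjusted p values of 0.52 or more by limma.

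The 3 linkers of filaments to the membrane had different values. Ezr, ezrin, had signals of 72.1, 86.1 and 153.8 in not axotomised MM18, MM19 and MM15, against 11.9, 47.3 and 73.8 in non-regenerating and 13.3, 70.6 and 88.3 in regenerating arrays. All but 1 of the non-regenerating arrays lay below the 3 not axotomised ones. Ezr differed by -0.93 on the log2 scale (SE 0.37, adjusted p = 0.47 by limma, exact permutation p = 0.0417) for non-regenerating and -0.63 (SE 0.38, adjusted p = 0.33 by limma) for regenerating over not axotomised neurons. Ezr is a dim gene, and its pair differences ran from -1.02 in MOON265 to 1.82 in MM17, the widest of all 33 genes.

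Rdx, radixin, had signals of 842.6, 805.6 and 372.7 in not axotomised MM18, MM19 and MM15, with MM15 the low one. Its regenerating arrays had 614.7, 1092.5 and 1540.6 and its non-regenerating arrays 557.2, 1053.1 and 1503 at the lowest, median and highest. Its log2 fold change was 0.68 (SE 0.31, adjusted p = 0.21 by limma) and 0.65 (SE 0.33, adjusted p = 0.47 by limma, exact permutation p = 0.142) over not axotomised neurons. Without MM15 these values were 0.30 and 0.28. A second Rdx probe set, nearly as bright (mean log2 signal 9.74 against 9.89), went the other way, at -0.66 (SE 0.57) and -0.39 (SE 0.62). That probe set had 173.6 to 241.6 on MOON and 893.8 to 2271.8 on axotomised MM arrays, while the brightest one was higher on MOON arrays. Msn, moesin, which is abundant in microglia and endothelium, had means of 357, 355 and 323 with SDs of 90.7, 33.6 and 34.3.

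In the Arp2/3 complex, which nucleates branches on existing filaments, 7 subunits were tested. Of these 7, 2 were higher at an unadjusted p under 0.05 in regenerating over not axotomised neurons, Arpc1b and Arpc5, against 5.98% of all tested probe sets. In non-regenerating over not axotomised neurons 1 was higher, Arpc1b, against 2.68%. No subunit was lower at that threshold, against 17.6% and 7.61%. Within animals no subunit had an unadjusted p under 0.05 in either direction. The median log2 fold change of the 7 was 0.22, 0.16 and 0.00050 in that order of comparisons.

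Arpc5, the smallest subunit, had signals of 956.2, 1082.5 and 409.4 in not axotomised MM18, MM19 and MM15. Regenerating arrays lay close together, at 1237.9, 1344.6 and 1510.9, all above the 3 not axotomised ones. Non-regenerating arrays had 533.7, 1420.9 and 1553.8, where MM17 was the low one and the other 6 lay above the not axotomised arrays. The log2 fold change was 0.84 (SE 0.26, adjusted p = 0.084 by limma, exact permutation p = 0.00833) for regenerating and 0.71 (SE 0.35, adjusted p = 0.47 by limma, exact permutation p = 0.0833) for non-regenerating over not axotomised neurons. Without MM15 the values were 0.42 and 0.28.

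Arpc1b, a subunit abundant in cells of blood origin, had signals of 154.8, 194.8 and 104.6 in not axotomised MM18, MM19 and MM15. Non-regenerating arrays had 177.7, 256.2 and 305.2, and 6 of the 7 lay above the not axotomised range. Regenerating arrays had 170.2, 325.3 and 386.6, and 5 of the 7 did. The log2 fold change was 0.82 (SE 0.30, adjusted p = 0.12 by limma, exact permutation p = 0.05) and 0.68 (SE 0.25, adjusted p = 0.47 by limma, exact permutation p = 0.0167), and 0.61 and 0.47 without MM15.

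Arpc3 had the lowest log2 fold change of the genes within animals, at -0.33 (SE 0.19, adjusted p = 0.71 by limma, sign-flip exact p = 0.203). Its regenerating arrays had 2272.5, 2552 and 3949.6, its non-regenerating arrays 1864.1, 3176.1 and 7335.1, and not axotomised MM18, MM19 and MM15 had 2427.5, 2546 and 7193.9. In 6 of 7 rats the regenerating value was the lower one, and the highest array of each other group was again MM17 or MM15. Actr2, the Arp2 subunit, had signals of 1890, 2489.2 and 4266.1 in regenerating and 1784.4, 3307.3 and 4626.7 in non-regenerating arrays, and 2409.1, 2357.2 and 4539 in MM18, MM19 and MM15. Within animals Actr2 differed by -0.20 (SE 0.14, adjusted p = 0.76 by limma), with 3 rats higher and 4 lower.

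The remaining subunits had no unadjusted p under 0.05. Arpc4 had signals of 70.7, 60.6 and 141.4 in not axotomised MM18, MM19 and MM15 and 76.5 to 148.3 in regenerating arrays, all above the first 2. Its log2 fold change was 0.26 (SE 0.28, adjusted p = 0.62 by limma) for regenerating and 0.32 (SE 0.31, adjusted p = 0.68 by limma) for non-regenerating over not axotomised neurons. Without MM15 these values were 0.58 and 0.64, and with array weights, where Arpc4 passed, 0.61 and 0.72. Arpc2 had a difference within animals of 0.00050 (SE 0.11), with every pair between -0.16 and 0.09, the narrowest range of the complex. Group means were 1274, 1264 and 1210 for Arpc2, 252, 246 and 222 for Arpc1a and 108, 115 and 90.9 for Arpc4 in regenerating, non-regenerating and not axotomised neurons. Wasl, the neuronal activator of the complex, had means of 2121, 2231 and 2039 with SDs of 838, 846 and 810. Cttn, cortactin, which steadies branches, had 252, 245 and 230 with SDs of 37.6, 31.4 and 43.7. Coro1b, which helps to take branches apart, was too dim to be tested, at 9.6 to 79.5 in regenerating, 6.9 to 118 in non-regenerating and 3.9 to 10.4 in not axotomised arrays.

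Ena/VASP proteins lengthen filaments at the barbed end and are concentrated at filopodial tips. Vasp had signals of 251.5, 218.0 and 160.5 in not axotomised MM18, MM19 and MM15, 135.9, 386.8 and 848.4 in regenerating and 161.4, 306.9 and 594.7 in non-regenerating arrays. Its log2 fold change over not axotomised neurons was 0.73 (SE 0.45, adjusted p = 0.35 by limma) for regenerating and 0.61 (SE 0.41, adjusted p = 0.55 by limma) for non-regenerating ones. Vasp differed by -1.19 on the log2 scale between axotomised MOON and MM arrays, the largest such difference of the tested actin genes. Regenerating and non-regenerating means were 502 and 448 in MM rats, above the not axotomised mean of 210. In MOON rats they were 198 and 174, below that mean. The part of the name prefix in the Vasp fold changes was not tested. Enah had means of 222, 199 and 214, and within animals it was higher in 5 of 7 rats by 0.15 on the log2 scale (SE 0.13, sign-flip exact p = 0.0625). Evl had means of 953, 959 and 800 (SDs 249, 287 and 53.2).

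Ablim1, an actin binding protein with LIM domains, had signals of 1504, 1424.3 and 1131.2 in not axotomised MM18, MM19 and MM15. Regenerating arrays had 1703.4, 1902.4 and 2333.2, all above these 3, and non-regenerating arrays 1192.4, 2053.7 and 2584.2, of which MM17 alone lay among them. Ablim1 differed by 0.53 on the log2 scale (SE 0.19, adjusted p = 0.12 by limma, exact permutation p = 0.00833) for regenerating and 0.48 (SE 0.26, adjusted p = 0.48 by limma) for non-regenerating over not axotomised neurons. Without MM15 these values were 0.40 and 0.36. A second, dim probe set of Ablim1 went the other way, at -0.36 (SE 0.35) and -0.50 (SE 0.37). Fscn1, the bundler of filopodia, was too dim to be tested, at 18.3 to 76.4 over the arrays.

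Capping protein, which closes the barbed end, was represented by Capzb and Capza2, with group means of 496, 539 and 561 and of 552, 593 and 589 in regenerating, non-regenerating and not axotomised neurons. Their log2 fold changes lay between -0.17 and -0.0017 in the 3 comparisons, with standard errors of 0.12 to 0.27.

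Tropomyosins lie along filaments and shield them from severing. Tpm3 had signals of 1012.6, 951.4 and 936.8 in not axotomised MM18, MM19 and MM15, 1087.3, 1315.3 and 1903 in regenerating and 987.7, 1256.2 and 1622.2 in non-regenerating arrays. Every regenerating array lay above the 3 not axotomised ones. Tpm3 differed by 0.47 on the log2 scale (SE 0.21, adjusted p = 0.19 by limma, exact permutation p = 0.025) and, for non-regenerating neurons, 0.38 (SE 0.21, adjusted p = 0.48 by limma). Within animals Tpm3 was higher in 6 of 7 rats, by 0.09 (SE 0.11, sign-flip exact p = 0.0781). Tpm4 had means of 1031, 988 and 824 and Tpm1 of 432, 422 and 576 in regenerating, non-regenerating and not axotomised neurons, with adjusted p values of 0.42 or more by limma for both.

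**Figure D4:**
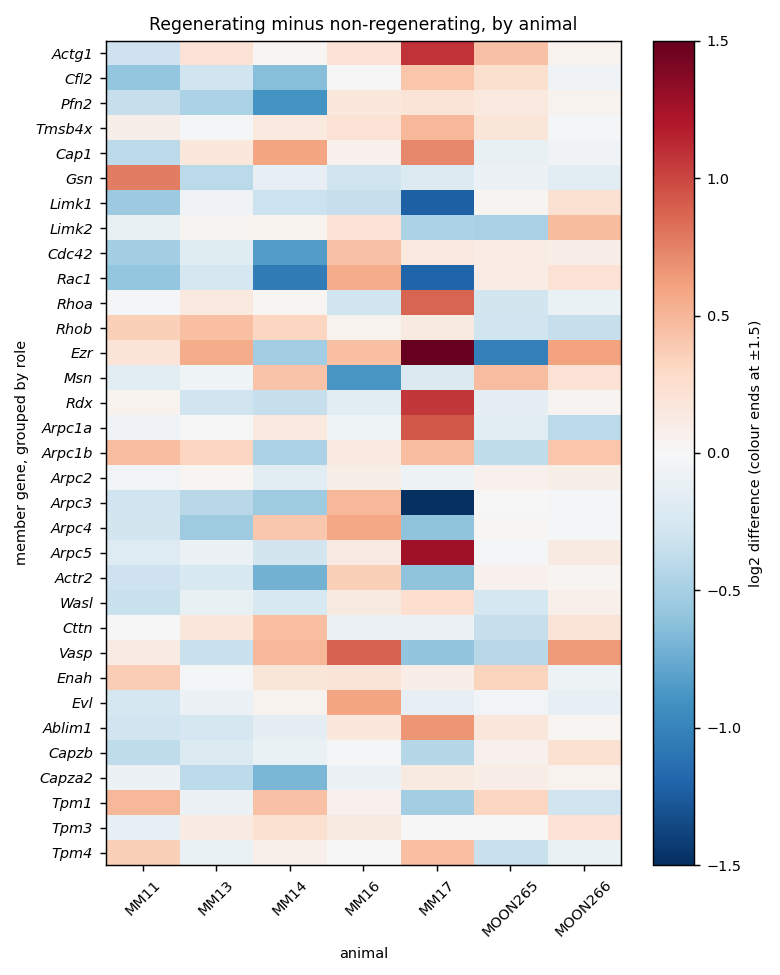
Log2 difference, regenerating minus non-regenerating (colour, ending at ±1.5), of the 33 tested actin genes (y axis, by role) in each of the 7 rats (x axis). No gene has 1 colour in all 7 columns, and the column of MM17 holds the strongest colours, up to 1.82 for Ezr.

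The rats differed in the sign of most genes. Of the 33 genes, 10 were higher in the regenerating sample of MM11, 11 in MM13, 16 in MM14, 24 in MM16, 19 in MM17, 17 in MOON265 and 20 in MOON266. The median difference ran from -0.12 in MM11 to 0.14 in MM16. Without MM17 the log2 fold changes within animals of Arpc3, Rac1, Actg1, Actr2 and Tmsb4x were -0.13, -0.17, 0.10, -0.13 and 0.10. Over all tested probe sets of the same 7 pairs, 41.6% to 57.0% were higher in the regenerating sample.

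Among the 14 axotomised arrays, the 4 of MOON rats stood apart from the 10 of MM rats in some actin genes. For 6 genes, Arpc2, Capza2, Cfl2, Pfn2, Rdx and Wasl, all MOON arrays were above all MM arrays, or 18.2% of the 33 genes against 5.34% of all tested probe sets. For 2 genes, Enah and Evl, they were all below, or 6.06% against 14.6%. Pfn2 had 3677.9 to 4084.4 on MOON and 1497.6 to 2863.4 on MM arrays, and Cfl2 had 3548.6 to 4183 and 1554.3 to 2848.5. Wasl had 2671.1 to 3798 on MOON and 1346.4 to 2027.7 on MM arrays. In the other direction, Enah had 94.8 to 140.3 and 159.9 to 344.7, and Evl 615.6 to 725.2 and 741 to 1399.4. With MM rats alone the log2 fold changes of Limk1, Limk2, Arpc5 and Arpc1b in regenerating over not axotomised neurons were -1.13, -0.86, 0.81 and 0.90.

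Probe sets of 1 gene often disagreed. Of the 12 genes with more than 1 tested probe set, all probe sets had the same sign in 5 within animals, in 4 for non-regenerating and in 2, Cfl2 and Pfn2, for regenerating over not axotomised neurons. The 5 probe sets of Tpm3 ran from -1.20 to 0.47 in the last comparison, and the 4 of Rdx from -0.66 to 0.68. A dim Tpm3 probe set had 98.9 to 115.5 in not axotomised and 29.4 to 88.8 in regenerating arrays, without overlap, at -0.98 (SE 0.27, adjusted p = 0.070 by limma), against 0.47 at the brightest. A dim Pfn2 probe set likewise had 52.4 to 94.7 in not axotomised and 17.8 to 45.8 in regenerating arrays, at -0.75 (SE 0.26, adjusted p = 0.11 by limma). Which transcripts these probe sets read was not analysed here.

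**Figure D5:**
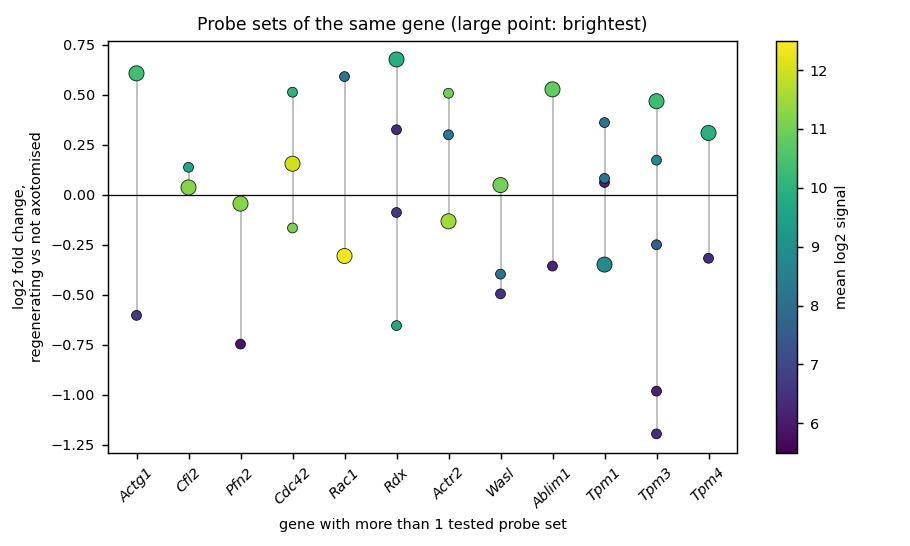
Log2 fold change of regenerating over not axotomised neurons (y axis) at every tested probe set of the 12 actin genes with more than 1 (x axis), with large points for the brightest and colour for mean log2 signal. The points of 10 genes lie on both sides of 0, from -1.20 to 0.47 for Tpm3.

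Other genes of the actin machinery were looked at in a list of 86, of which 79 had a probe set and 71 were tested. By limma, 0 passed in any comparison. With an unadjusted p below 0.05 there were 4 with higher and 2 with lower means within animals, against 4.26% and 2.81% of all tested probe sets. In non-regenerating over not axotomised neurons there were 4 and 3, against 2.68% and 7.61%, and in regenerating over not axotomised ones 6 and 7, against 5.98% and 17.6%. The median log2 fold changes were 0.02, -0.03 and -0.04. By role, the medians within animals, for non-regenerating and for regenerating over not axotomised neurons were -0.03, 0.07 and -0.01 for 17 nucleators, 0.07, -0.03 and 0.09 for 24 kinases, exchange factors and GTPases, and 0.0021, -0.10 and -0.17 for 30 filament binding genes.

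The smallest p of these genes belonged to Coro1a, the coronin of leukocytes, Lcp1, the plastin of leukocytes, and Baiap2, a linker between Rac and WAVE proteins that is abundant at synapses. In regenerating over not axotomised neurons, Coro1a had means of 87.2 and 12.6. The latter lies below the offset of 16, so this gene was tested only through its signal in axotomised neurons and no fold is given. For Lcp1 the means were 954 and 477, a difference of 0.94 on the log2 scale (SE 0.24), and for Baiap2 72.6 and 162, a difference of -1.05 (SE 0.27). All 3 had an adjusted p of 0.068 by limma.

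In the other comparisons, too, the first 3 did not pass. Within animals they were Lcp1 at 0.43 (SE 0.14), Lasp1, an adaptor of focal adhesions, at -0.43 (SE 0.16) and Tmod2, the neuronal tropomodulin, at 0.31 (SE 0.12), each with an adjusted p of 0.68 by limma. For non-regenerating over not axotomised neurons they were Coro2b, a coronin of nervous tissue, at -0.76 (SE 0.29), Coro1a with means of 63.7 and 12.6 and again no fold, and Cap2, a relative of Cap1, at -0.93 (SE 0.38), each with an adjusted p of 0.47 by limma.

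Markers of other cell types also differed between the groups. Of 14 tested microglia and macrophage markers, of 18 with a probe set among 20 listed, 13 had a higher mean in both axotomised groups, with median log2 fold changes of 0.95 for regenerating and 0.99 for non-regenerating over not axotomised neurons, and 0.02 within animals. Their summed signal was 11507 to 21309 in regenerating, 10875 to 19460 in non-regenerating and 6506 to 8030 in not axotomised arrays, without overlap. By limma 3 of them passed in regenerating over not axotomised neurons, C1qa, Laptm5 and Lyz2, and no marker was at 0, though Itgam was close to it at 1.8 to 7.3.

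Of 11 tested astrocyte markers, 1 passed in that comparison, Gfap, with a mean of 3116 against 1227. Summed astrocyte signal was 16746 to 27802, 15848 to 28387 and 15676 to 21511 in regenerating, non-regenerating and not axotomised arrays. The higher microglia and macrophage sums stood beside higher means of Arpc1b, Arpc5, Tmsb4x and Lcp1, which such cells also express. Msn, also abundant in microglia, differed by 0.10 on the log2 scale for regenerating and 0.13 for non-regenerating over not axotomised neurons. The part of other cell types in these values was not tested. In samples pooled from many cells, fewer cells of a type and less RNA per cell cannot be told apart.

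The other marker lists gave median log2 fold changes, within animals, for non-regenerating and for regenerating over not axotomised neurons in that order, of -0.03, -0.03 and -0.18 for 10 oligodendrocyte, -0.15, -0.47 and -0.41 for 7 endothelial and -0.03, -0.13 and -0.32 for 4 pericyte genes. For 12 general neuron genes they were -0.05, -0.09 and -0.23. For 6 motor neuron genes they were 0.84, 0.21 and 0.94. None of the 6 passed within animals, where 4 were higher at an unadjusted p under 0.05, against 4.26% of all tested probe sets. The part of these values in the values of the actin genes was not tested.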

How the data were processed

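The authors deposited 1 linear intensity per probe set and array, and the submitters' processing notes name GCOS, the Affymetrix software; its version and settings are not given in the sources used here. The mean of each array without its lowest and highest 2% of signals was 200.0 to 200.1, so whole arrays had been scaled, and no further scaling was done. Among the 17 arrays, each with 31099 probe sets, 0 pairs were identical.

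Signals were raised by 16, their 25th percentile, before log2. Probe sets with a mean log2 signal under the 40th percentile (12417) and controls (57) were left out, which left 18625. Of these, 13224 had 1 gene symbol in the array's annotation, 300 had several and 5101 none, and only the first were named. RefSeq changed no symbol of a member. A filter on mean signal can keep a gene through the group where it is high.

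A Benjamini-Hochberg adjusted p under 0.05 over all 18625 probe sets, from eBayes with trend after lmFit (limma 3.58.1, R 4.3.3), was the threshold. Regenerating and non-regenerating arrays were compared with a term for each rat, and each of these groups was compared with the not axotomised arrays without one. The pairing comes from the animal names in the labels. The 2 samples of an animal deviated together from their group means, with r = 0.34 to 0.71 over probe sets. Arrays of different rats were not correlated, and the highest r, 0.67 and 0.71, were those of the MOON rats. These r values therefore do not test the pairing. Single values were also tested with two-sided exact tests, unadjusted, by sign flips over 7 pairs (smallest p 0.0156) or by permutation of 7 against 3 (smallest p 0.00833). The number of arrays limits the precision given, and results also moved when single arrays were left out or weighted. The scripts were tested on simulated data with 100 changes of 2-fold and 100 of 4-fold per comparison. At the same threshold, 61% of the 2-fold changes were recovered within animals, 11% for non-regenerating and 10% for regenerating over not axotomised neurons. False calls numbered 13, 2 and 6 in that order. A 2-fold change can thus be missed, above all in the comparisons with not axotomised neurons. The adjusted threshold grows stricter with fewer changed probe sets, so these shares may overstate recovery in the real data.

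The members and all gene lists were chosen with earlier results of these data known. Named in full were the 6 members with the smallest p in each comparison, plus Actg1, Rhoa, Rac1 and Cdc42, and of other actin genes up to 3 per comparison. Probe sets beyond the brightest, Tpm3, Enah, Vasp, Cap1 and Arpc4, and the genes that separate the MOON rats were added after their values were seen. Alternatives were tried for array weights, 3 prime bias, normalization, filter, offset, trend, the block, 1 fit over all arrays, the name prefixes and leaving out arrays. Python 3.11.15, numpy 2.4.6, pandas 2.3.3 and matplotlib 3.10.9 were used for sequences and figures.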

Additional observations from a re-analysis of the deposited data

Results flagged for a closer look

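In 6 of 28 groups of 7 arrays, looked at for 14 of the actin genes named in full, 1 array lay far from the other 6. The gap to its nearest neighbour, as a share of the range of the group on the scale of log2(signal + 16), was above the critical value of 0.568. Chance does this in about 1 in 20 groups. In 5 cases the array was that of non-regenerating MM17. On the linear scale its signal was 617.7 for Actg1, against 1223.6 to 1764.3 on the other 6 arrays. Arpc5 had 533.7 there, against 1228.5 to 1553.8, and Rhoa had 350.2, against 598.3 to 852.9. The LIM kinases were on the high side, with 876.2 for Limk1 against 191.3 to 321.1, and 572.8 for Limk2 against 204.5 to 276.7. In the remaining case, regenerating MOON265 had 13.3 for Ezr, against 46.7 to 88.3.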

How the results depend on the processing

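No member passed in any setting of the comparison within animals. Of the members, 7 passed with array weights for non-regenerating over not axotomised neurons, against 13.1% of all tested probe sets. They were Ablim1, Arpc1b, Arpc4, Cap1, Limk1, Limk2 and Tpm3. For regenerating over not axotomised neurons these 7 and Vasp passed with array weights, against 16.8% of all tested probe sets. Limk1 passed with quantile normalization, and Limk1 and Limk2 with an offset of 64. Both also passed without regenerating MM17, where 8.08% of all tested probe sets did. Counts over all probe sets in the other settings follow below. The cause was not tested.

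Over all probe sets, 3 passed within animals with the block, 0 with no replicate block, 0 with quantile normalization, an offset of 1, no filter, 3 prime bias as a covariate or without the arrays of MM17 and MM15, 1 with MM rats alone, and 0 to 3 when 1 rat was left out. For non-regenerating over not axotomised neurons, 8 passed, against 17 with quantile normalization, 3 with an offset of 64, 2440 with array weights, 18 with 3 prime bias, 3 with MM rats alone, 23 in 1 fit over all arrays, and 2 (without MM18) to 37 (without non-regenerating MM17) when 1 array was left out. For regenerating over not axotomised neurons, 40 passed (29 higher, 11 lower), against 215 with quantile normalization, 350 (300 higher, 50 lower) with each array centred on its median, 871 (125 higher, 746 lower) with an offset of 64, 20 with a filter at the 70th percentile, 3131 with array weights, 8 with 3 prime bias, 70 with MM rats alone, 1 without the 2 arrays, and 1 (without MM15) to 1504 (without regenerating MM17) when 1 array was left out.

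Centring moved the median over all probe sets from -0.12 to 0.24 for non-regenerating and to 0.26 for regenerating over not axotomised neurons, and the members' median to 0.49 in both. The members' median in the latter was 0.22 with 3 prime bias and 0.22 with MM rats alone.

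Signs turned as follows. The members' median within animals, 0.028, was -0.022 with array weights, -0.016 with 3 prime bias and -0.015 without the 2 arrays or without MM17. In regenerating over not axotomised neurons the median was 0.057 with array weights. Within animals, Rac1 was 0.0026 with quantile normalization and 0.17 in MOON rats alone (a setting added after seeing the data). Cdc42 was 0.056 and 0.11 in these settings, and -0.19 to 0.018 leaving out 1 rat. Rhoa was -0.035 with array weights, -0.044 with 3 prime bias, -0.084 without the 2 arrays, -0.19 in MOON rats, and -0.084 to 0.11 leaving out 1 rat. In MOON rats, Limk1 was 0.14 and Actr2 0.056. For non-regenerating over not axotomised neurons, leaving out 1 array gave -0.28 to 0.53 for Rac1, -0.020 to 0.57 for Actg1 and -0.0026 to 0.38 for Rhoa. For regenerating over not axotomised neurons, Rac1 was 0.024 with quantile normalization, 0.083 with centring, 0.050 with array weights, 0.35 with 3 prime bias, 0.21 without the 2 arrays and -0.59 to 0.21 leaving out 1 array, and Cdc42 was -0.042 with MM rats alone.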
